A study of Temnothorax americanus and Temnothorax ambiguus and Temnothorax curvispinosus with 48 samples.

Results

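Temnothorax curvispinosus is a small acorn-nesting ant that serves as host to the slavemaking ant Temnothorax duloticus. Slavemakers enter host nests to steal brood, and the workers that emerge from this brood later work for the slavemaker colony, so a host colony's defense rests on workers that meet the intruders at the nest entrance and bite, sting or drag them away. The data described here are 8 of the 48 RNA libraries of a study of 3 slavemaker and 3 host species. Of these, 4 are nest defense libraries (DR_413, DR_414, DR_415 and DR_416), made from host workers caught while fighting T. duloticus raiders just outside the nest, and 4 are before a raid libraries (BR_409, BR_410, BR_411 and BR_412), made from host foragers taken before the colony met the slavemaker. The libraries were chosen by species and state alone. Each is a pool of 6 whole workers, 2 from each of 3 Ohio colonies kept and raided in laboratory arenas. The pools of both states drew on the same colonies, but the labels do not say which nest defense pool shares its colonies with which before a raid pool, so libraries of the 2 states were not matched with each other. The study's methods place the sampling of foragers at the opening of the trials and, in another passage, on the raid day itself, shortly before contact. Defenders were taken once a raid had begun, which by the first passage could be days later. A pool shows the average of its workers, and foragers outside the nest and workers that fight at its entrance can be different sets of workers, so the task of a worker and the state of the colony cannot be told apart.

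The study left DR_414 and BR_411 out of its tests as outlying, so that 3 nest defense and 3 before a raid libraries were compared, and the same 6 libraries gave the main values here. The removed pair was used as a check. Library totals were 5.94 to 33.6-million counts in the kept nest defense libraries and 20.2 to 31.1-million in the kept before a raid libraries, against 40.1-million in DR_414 and 89.0-million in BR_411. Values are counts per contig, a contig being 1 assembled piece of transcript, of which the T. curvispinosus assembly holds 79277. Levels are given as CPM, counts per 1000000 of the library size after TMM scaling, and are not corrected for contig length, so that levels are compared between libraries and not between contigs. A single count was worth 0.164 CPM in DR_415, the shallowest library, and 0.0294 CPM in DR_416.

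Over all contigs, no difference between defending and foraging workers passed the main test. The quasi-likelihood test of edgeR called 0 of 42631 tested contigs (a background of 0.0%) at an adjusted p of 0.05, and the lowest adjusted p of any contig was 0.9999, so that no contig described below was called by it. At an unadjusted p of 0.05 the same test passed 1270 contigs, or 2.98% of those tested, of which 561 were higher and 709 lower in nest defense. Other tools called more contigs on the same 6 libraries. The likelihood ratio test of edgeR called 67 contigs (0.157%), 26 higher and 41 lower, and DESeq2 called 68 (0.16%), 31 higher and 37 lower. The spread between libraries of the same state, given as a biological coefficient of variation, was 0.545.

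Whole profiles were not detectably separated by state. The mean Spearman correlation of log2 CPM was 0.841 among the 3 kept nest defense libraries, 0.878 among the 3 kept before a raid libraries and 0.864 between the states. ANOSIM, which asks whether libraries of 1 state are more alike than libraries of different states, gave R = -0.11 (one-sided exact permutation p = 0.70, n = 3 each), where 3 against 3 cannot go below 0.10. The lowest mean correlations belonged to DR_415, at 0.823 with the other kept nest defense libraries and 0.818 with the kept before a raid libraries. The highest of all 28 pairs joined a defense library to a before a raid library, DR_416 to BR_412, at 0.915. Pools of both states drew on the same colonies, and neither the correlations nor ANOSIM took account of this. Whether DR_416 and BR_412 share colonies is not given by the labels. DR_414 stood at 0.876 with the kept nest defense libraries and 0.891 with the kept before a raid libraries, and BR_411 at 0.884 and 0.898 with the same sets, so by this measure neither removed library was as far from the others as DR_415 was. DR_415 is also the shallowest library, at 5.94-million counts, while DR_414 has 40.1-million and BR_411 89.0-million. The part of depth in these correlations was not tested, so they do not judge which libraries were outlying.

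**Figure D1:**
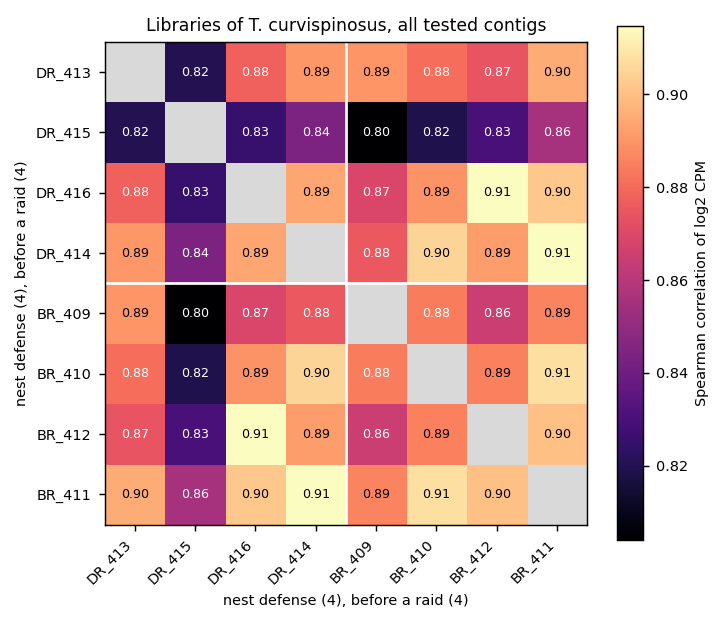
Spearman correlation of log2 CPM between every pair of the 8 T. curvispinosus libraries over all tested contigs, nest defense first (top and left) and before a raid after it, with the removed DR_414 and BR_411 last in each state. The row of DR_415 holds the lowest values, down to 0.804 with BR_409, and the highest, 0.915, joins DR_416 and BR_412.

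Names were available through 108 contigs, those that the study itself called on these 6 libraries and listed with their best protein match. Because the list was picked on the same libraries, its direction and the gap between its states are given as a description. In it, 50 contigs had a higher and 58 a lower pooled CPM in nest defense. Of the 108, 41 had a protein match, 32 of them to another ant (16 to Acromyrmex echinatior and 10 to Solenopsis invicta), and 67 had none. The match named a protein for 17 contigs (9 higher and 8 lower in nest defense, 16 distinct names) and was a hypothetical or uncharacterized protein for 24 (17 higher and 7 lower). None of the 108 passed the quasi-likelihood test, 63 had enough counts to be tested, and the lowest adjusted p among them was 0.9999. All 63 had an unadjusted p under 0.05, on the libraries they were picked from. The likelihood ratio test without a count filter, the nearest of the tests run here to the study's own, called 67 of the 108, among 93 called of 66931 contigs (0.139%).

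Many of these contigs were near or at 0 in 1 state. Among the 50 higher contigs, 29 had no count in any kept before a raid library, and among the 58 lower contigs, 46 had none in any kept nest defense library. The other state's level was at least 15.4-fold above the floor for each of these 75, a floor being 3 counts over the 3 libraries without counts. In bulk RNA, fewer cells of a type and less RNA per cell cannot be told apart, so a level here can follow either.

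**Figure D2:**
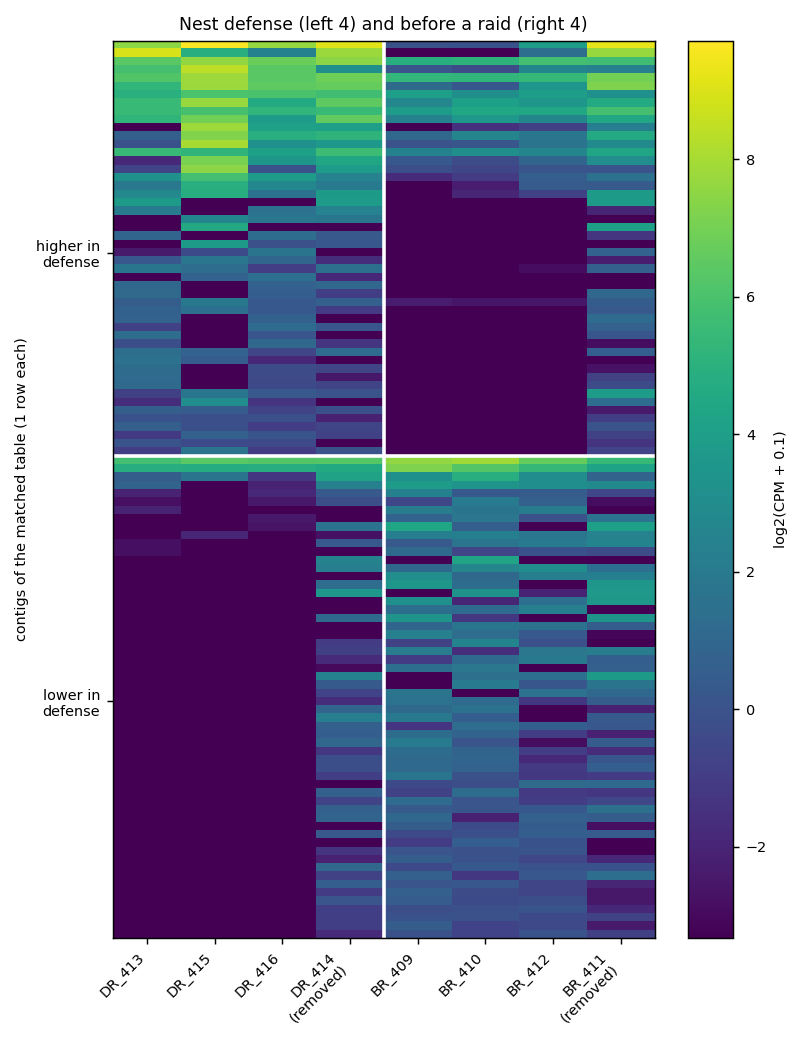
Levels of the 108 contigs (rows, 50 higher in nest defense above and 58 lower below) in the 8 libraries (columns, 4 nest defense on the left and 4 before a raid on the right, with the removed library last in each state), as log2(CPM + 0.1). Contigs that are dark in the 3 kept libraries of 1 state often have counts in the removed library of that state, DR_414 in the lower block and BR_411 in the upper.

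Suppressor of tumorigenicity protein 14 (rep_c15309) is a membrane-bound serine protease known from mammals as matriptase. Its contig had 83.1, 196 and 111 CPM in DR_413, DR_415 and DR_416, against 28.9, 34.0 and 56.0 CPM in BR_409, BR_410 and BR_412. The removed libraries lay on the same sides, at 174 CPM in DR_414 and 52.8 CPM in BR_411, so that all 4 nest defense libraries stood above all 4 before a raid libraries. Its log2 fold change was 1.71 ± 0.38 (SE) in the kept libraries and again 1.71 over all 8. Under DESeq2 its adjusted p was 0.0202.

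Arylphorin subunit alpha (rep_c5662), a hexamerin storage protein that insects make in the fat body and hold in the hemolymph as a reserve of amino acids, was also higher in each kept nest defense library than in each kept before a raid library. It had 46.6, 37.0 and 17.1 CPM in DR_413, DR_415 and DR_416, against 5.17, 8.99 and 6.02 CPM in BR_409, BR_410 and BR_412. In the removed pair it had 48.6 CPM in DR_414 and 20.4 CPM in BR_411, and the BR_411 value was above that of DR_416. The log2 fold change was 2.31 ± 0.41 (SE), with an adjusted p of 9.6e-04 by edgeR's likelihood ratio test and 2.6e-04 by DESeq2, and leaving out single libraries left it between 1.98 and 2.63.

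The contigs of a fatty acyl-CoA reductase and of an elongase were higher in pooled CPM in nest defense. Fatty acyl-CoA reductases turn fatty acyl chains into the alcohols of waxes, pheromones and other surface lipids, and elongases lengthen the chains from which such lipids and cuticular hydrocarbons are made. The fatty acyl-CoA reductase contig (rep_c11892) had 72.9, 224 and 85.2 CPM in DR_413, DR_415 and DR_416, against 40.5, 38.4 and 41.8 CPM in BR_409, BR_410 and BR_412. The kept states did not overlap, but BR_411 had 129 CPM and DR_414 117 CPM, so that the removed before a raid library lay above 2 of the 3 kept nest defense libraries. The log2 fold change was 1.66 ± 0.43 (SE) with 6 libraries and 1.0 with 8, and without DR_415 it was 0.97. No tool called the contig, with an adjusted p of 0.128 by edgeR's likelihood ratio test and 0.0656 by DESeq2.

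The contig matching elongation of very long chain fatty acids protein AAEL008004 (rep_c31256) had no count in any of the 4 before a raid libraries and was uneven among defenders. It had 0, 13.8 and 0.854 CPM in DR_413, DR_415 and DR_416, and DR_414 had 1.07 CPM. DR_415 thus held 94.2% of the 6 libraries' summed CPM, from 84 counts. With the count filter off, edgeR's likelihood ratio test gave the contig an adjusted p of 0.102. Pooled over the kept libraries the level in nest defense was at least 47.4-fold higher than the floor of 3 counts over the 3 before a raid libraries. The contig of 85 kDa calcium-independent phospholipase A2 (contig_12125 named for DR_413), an enzyme that frees fatty acids from membrane lipids, was likewise absent from all 4 before a raid libraries and had 2.96, 1.31 and 0.177 CPM in DR_413, DR_415 and DR_416, or at least 33.1-fold over the same floor. It had no count in DR_414, the second deepest library.

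Trypsin-7 is a digestive serine protease of the insect gut. The contig matching it (contig_13189 named for BR_412) had counts in nest defense libraries only among these 8. Its level was 0, 6.22 and 3.41 CPM in DR_413, DR_415 and DR_416, against 0 in BR_409, BR_410 and BR_412, which is at least 64.6-fold above the floor when pooled. The removed libraries gave the same picture, with 3.21 CPM in DR_414 (126 counts) and no count among the 89.0-million of BR_411. So 3 of 4 nest defense libraries had counts of this contig and 0 of 4 before a raid libraries did. DR_413, a nest defense library of 21.9-million counts, had none, and the kept states therefore touch at 0. The contig had too few libraries with counts to pass the filter of the main test, and with that filter off edgeR's likelihood ratio test gave it an adjusted p of 0.0608.

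The contig matching the transient receptor potential cation channel protein painless (contig_19729 named for BR_411), known from Drosophila for sensing noxious heat and touch, was counted in 1 library of each state. It had 23.6 CPM (144 counts) in DR_415 and 0 in DR_413 and DR_416, against 0 in BR_409, BR_410 and BR_412. In the removed pair the order was turned round, with 0 in DR_414 and 17.2 CPM (1482 counts) in BR_411. DR_415 and BR_411 were also where contigs named for BR_411 were most often highest over the whole assembly. Whether these libraries share colonies is not given by the labels. All of the difference in the kept libraries thus came from DR_415, and edgeR's likelihood ratio test with the filter off gave an adjusted p of 0.423.

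Both remaining defense-high names were contigs matching a putative tick transposon, a mobile element. The first (rep_c10472, contig A in the panels) had 45, 60.1 and 38.1 CPM in DR_413, DR_415 and DR_416, against 14.5, 21.5 and 22.0 CPM in BR_409, BR_410 and BR_412, and the second (rep_c21240, contig B) had 6.92, 28.2 and 2.80 CPM against 0, 0.163 and 0.483 CPM in the same order. Their log2 fold changes were 1.30 ± 0.24 and 5.77 ± 1.30 (SE). In BR_411 they reached 59.1 and 13.7 CPM, above DR_414 at 44.0 and 13.5 CPM, and with all 8 libraries the log2 fold changes were 0.67 and 1.79. The before a raid library outside the comparison thus had both elements at the level of defenders.

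**Figure D3:**
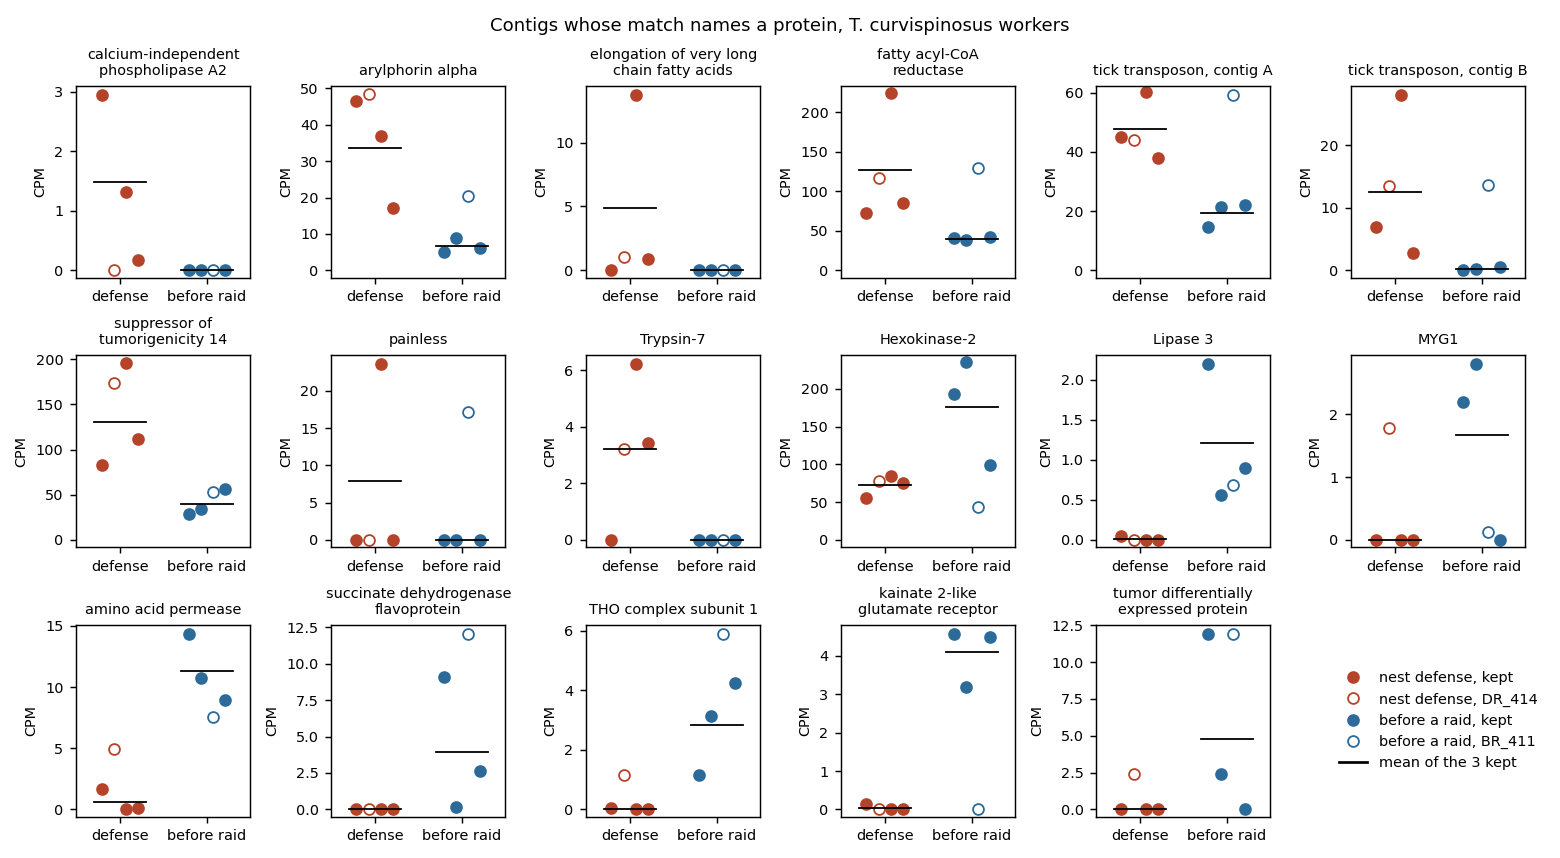
CPM (vertical axis, a separate linear scale in each panel) of the 17 contigs whose match names a protein, with nest defense on the left and before a raid on the right of each panel. Filled points are the 3 kept libraries of a state, open points are DR_414 and BR_411, and lines are means of the kept libraries; the panels of suppressor of tumorigenicity 14, Lipase 3, amino acid permease, succinate dehydrogenase and THO complex subunit 1 keep the states apart in all 8 libraries.

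Among the names higher before a raid, Hexokinase-2 (rep_c16558) phosphorylates glucose at the entry to glycolysis. It had 56.0, 85 and 75.6 CPM in DR_413, DR_415 and DR_416, against 193, 235 and 98.8 CPM in BR_409, BR_410 and BR_412. The kept states did not overlap, with the nearest values 85 CPM in DR_415 and 98.8 CPM in BR_412. DR_414, at 77.6 CPM, lay among the other defenders, while BR_411, at 42.9 CPM, lay below all 4 of them. The log2 fold change was -1.28 ± 0.33 (SE), and the adjusted p was 0.192 by edgeR's likelihood ratio test and 0.128 by DESeq2.

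The contig of the putative amino acid permease F13H10.3 (contig_5571 named for BR_409), a membrane carrier of amino acids, kept its states apart in all 8 libraries. It had 1.68, 0 and 0.147 CPM in DR_413, DR_415 and DR_416 and 4.97 CPM in DR_414, against 14.4, 10.8 and 8.92 CPM in BR_409, BR_410 and BR_412 and 7.58 CPM in BR_411. Its log2 fold change was -4.06 ± 1.06 (SE) in the kept libraries and -2.53 over all 8. The adjusted p was 0.0212 by DESeq2 and 0.114 by edgeR's likelihood ratio test.

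THO complex subunit 1 (contig_3757 named for BR_409), part of a complex that couples transcription to the export of mRNA from the nucleus, had 1 count in DR_413 and none in DR_415 and DR_416, against 1.17, 3.13 and 4.24 CPM in BR_409, BR_410 and BR_412. The pooled level before a raid was 186-fold that of nest defense, with a 95% exact binomial interval of 33.0 to 7373 that covers counting error only. The fitted log2 fold change was -7.02 ± 1.07 (SE) in the kept libraries, -3.37 over all 8 and -3.04 with DR_414 alone added. DR_414 had 1.15 CPM, close to the 1.17 CPM of BR_409 and still below every before a raid library, and BR_411 had 5.91 CPM. It was among the contigs called by both likelihood ratio tests and DESeq2 (adjusted p = 1.5e-05 by edgeR's likelihood ratio test with the filter).

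Succinate dehydrogenase flavoprotein subunit (contig_16209 named for BR_411), the catalytic subunit of complex II of the respiratory chain, had no count in any of the 4 nest defense libraries. In the before a raid libraries this contig had 9.11, 0.163 and 2.64 CPM in BR_409, BR_410 and BR_412 and 12.1 CPM in BR_411. The foraging libraries thus differed widely among themselves. Pooled over the kept libraries, it was at least 69.6-fold lower in nest defense. A respiratory enzyme is needed in every worker, and the contig is 1 piece of transcript, so a count of 0 is a statement on that contig and not on the enzyme. The same holds for every named contig in this report. Names exist only for the 108, so other contigs of the same genes could not be looked for.

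Lipase 3 (rep_c30905), an enzyme that splits stored or dietary fats, had 1 count in DR_413 and none in the other 3 nest defense libraries, against 2.19, 0.554 and 0.892 CPM in BR_409, BR_410 and BR_412 and 0.685 CPM in BR_411. The before a raid level was 68.3-fold that of nest defense in the kept libraries (95% exact binomial interval of 11.9 to 2729). Its adjusted p was 0.00685 by edgeR's likelihood ratio test and 0.0737 by DESeq2.

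The contig matching a kainate 2-like glutamate receptor (contig_21679 named for BR_409), an ion channel that opens on the transmitter glutamate, was even within the kept states, but not once the removed libraries were counted. It had 3 counts in DR_413 and none in DR_415 and DR_416, against 4.58, 3.19 and 4.50 CPM in BR_409, BR_410 and BR_412, a ratio of 82.9 before a raid over nest defense (95% exact binomial interval of 28.1 to 404). The likelihood ratio test gave an adjusted p of 8.1e-08 and DESeq2 4.5e-06, the smallest of the named contigs by either. DR_414 had no count of it, as in the kept defenders, but neither did BR_411, a before a raid library with 89.0-million counts.

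MYG1 is a nuclease of nucleus and mitochondria as known from mammals. The contig matching it (rep_c50265) had no count in the kept nest defense libraries or in 1 of the kept before a raid libraries. It had 0 CPM in DR_413, DR_415 and DR_416, against 2.19, 2.80 and 0 CPM in BR_409, BR_410 and BR_412, or at least 34.7-fold lower in nest defense when pooled. The removed pair went the other way, at 1.78 CPM (70 counts) in DR_414 and 0.128 CPM (11 counts) in BR_411. The contig of a putative tumor differentially expressed protein (rep_c32713) had 0 CPM in DR_413, DR_415 and DR_416 and 2.40 CPM in DR_414, against 11.9, 2.38 and 0 CPM in BR_409, BR_410 and BR_412 and 11.9 CPM in BR_411. BR_409 alone held 83.4% of its summed CPM over the 6 kept libraries. In both contigs BR_412 was at 0 like the kept defenders, so the kept states touch.

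Sorted by keyword lists of function, the 41 matches gave no group large enough to describe as one. Of 20 lists, 9 had a member. Lipid and hydrocarbon enzymes had 4 (3 higher and 1 lower in nest defense), receptors and signalling 3 (1 higher and 2 lower, the keyword also taking in Hexokinase-2), and transposable elements 2 (both higher). Digestive proteases, nociception and ion channels, and venom had 1 keyword hit each, all higher, the venom keyword having matched the calcium-independent phospholipase A2. The kainate 2-like glutamate receptor, an ion channel lower in nest defense, was missed by the ion channel keywords. It was counted under neural signalling and under receptors and signalling. Stress response (MYG1), carbohydrate use and neural signalling had 1 each, all lower. The lists for protease inhibitors, vitellogenin, cytochrome P450, mitochondrial respiration, ribosome and translation, muscle, transcription, chemosensory, immune, cuticle and transporter proteins had 0 members by their keywords. The keywords missed succinate dehydrogenase, the amino acid permease and THO complex subunit 1, which are described above and stand in no list. Arylphorin subunit alpha, the serine protease known as matriptase and the putative tumor differentially expressed protein also stand in no list. Every count here, 0 included, is thus a count of keyword hits. No member of any list passed the quasi-likelihood test, against 0 of 42631 contigs in all, and since names exist only for contigs the study called, these counts say nothing of genes outside the 108.

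Among hypothetical proteins, for which no function can be given, SINV_11731 was matched by 2 contigs (c22415 and rep_c5789), which may be parts or copies of 1 gene. The more abundant had 180, 848 and 205 CPM in DR_413, DR_415 and DR_416, against 0.83, 0.880 and 15.0 CPM in BR_409, BR_410 and BR_412, with a log2 fold change of 6.19 ± 1.43 (SE). BR_411, however, had 615 CPM from 53016 counts, more than the 539 CPM of DR_414, and over all 8 libraries the log2 fold change was 1.49. The other contig had a like pattern, with 146 CPM in BR_411 and 100 CPM in DR_414.

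The hypothetical protein G5I_12476 (rep_c7422) kept its states apart in all 8 libraries. It had 59.5, 350 and 85 CPM in DR_413, DR_415 and DR_416 and 8.84 CPM in DR_414, against 0.975, 0.684 and 6.17 CPM in BR_409, BR_410 and BR_412 and 5.01 CPM in BR_411. All 4 nest defense libraries were thus above all 4 before a raid libraries, though DR_414 came close to BR_412. The log2 fold change was 5.96 ± 1.17 (SE) in the kept libraries and 5.26 over all 8. SINV_08851 also kept its states apart in all 8 libraries, at 9.24, 56.0 and 14.4 CPM in DR_413, DR_415 and DR_416 and 5.40 CPM in DR_414, against 0.195, 0.391 and 1.45 CPM in BR_409, BR_410 and BR_412 and 2.77 CPM in BR_411.

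G5I_09369 was matched by 4 contigs, all highest in 1 library. In DR_415 they had 137 to 259 CPM, in DR_416 9.13 to 29.2 CPM and in DR_413 0 to 1.46 CPM, against at most 2.05, 6.0 and 3.42 CPM in BR_409, BR_410 and BR_412. DR_413 thus lay among the foragers, and the removed libraries had 12.2 to 35.6 CPM in DR_414 and 4.78 to 25.0 CPM in BR_411. SINV_12147 was highest in another library, with 493 CPM in DR_413 but 30 and 5.15 CPM in DR_415 and DR_416, against 0, 0 and 2.56 CPM in BR_409, BR_410 and BR_412. Its removed pair was level, at 215 CPM in DR_414 and 213 CPM in BR_411.

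On the foraging side the hypothetical protein SINV_02335 (contig_8626 named for BR_409) was counted in every before a raid library. It had no count in any of the 4 nest defense libraries, against 1.80, 3.23 and 2.79 CPM in BR_409, BR_410 and BR_412 and 1.35 CPM in BR_411, and pooled it was at least 55.9-fold lower in nest defense than before a raid. Its adjusted p over all 8 libraries was 0.83 by edgeR's quasi-likelihood test. G5I_14064, by contrast, had 27.8, 26.5 and 27.6 CPM in DR_413, DR_415 and DR_416, near-equal values, against 149, 75.3 and 41.4 CPM in BR_409, BR_410 and BR_412, but BR_411, at 19.0 CPM, lay below the 24.1 CPM of DR_414.

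How much rests on single libraries can be counted over the 108. In 17 contigs (11 higher and 6 lower in nest defense) 1 library held 80% or more of the 6 libraries' summed CPM. Of these, 6 were among the 63 that passed the count filter, or 9.52%, against 0.108% of all 42631 contigs that passed it. DR_415 was the highest of the 6 in 27 of the 50 higher contigs, DR_413 in 18 and DR_416 in 5. Among the 29 of them that passed the filter, the counts were 21 (72.4%), 8 (27.6%) and 0, where over all 19578 tested contigs with a positive fold change the shares were 43.6%, 24.2% and 19.4%. Among the 58 lower contigs BR_409 was the highest in 31, BR_410 in 18 and BR_412 in 9. Among the 34 of them that passed the filter, the counts were 17 (50%), 9 (26.5%) and 8 (23.5%), against 31.8%, 25.4% and 22.0% of the 23053 tested contigs with a negative one. DR_415 has the lowest depth of all 8 libraries, and its part in these results was not tested beyond the fits without it.

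Contig names begin with the number of 1 library or with the name of the joint assembly. Per the study's methods, the partial assemblies each joined a pair of libraries before they were merged, so a number in a name does not stand for that library alone. Some of these pairs joined a before a raid library to a during raid library of the same replicate number. Whether libraries of the same number share their colonies is not stated. Over the whole assembly, contigs named for BR_409 were most often highest in BR_409 (1164) and BR_410 (1024) of the 8 libraries, both before a raid. Contigs named for BR_412 were so in BR_412 (1378) and DR_416 (1340). Those named for BR_411 were so in BR_411 (14020) and DR_415 (2184), and those named for DR_413 in DR_414 (1433) and DR_413 (1136). Of the 58 lower contigs, 21 (36.2%) were named for BR_409, and of the 50 higher contigs 0, whereas 5.27% of all contigs in the assembly bear that name. Contigs named for BR_409 were also the ones in which the states were most often apart in that direction, with 3.69% of 2495 tested lower in nest defense at an unadjusted p of 0.05, against 1.51% of the 32675 tested contigs of the joint set. In the other direction the shares were 1.28% and 1.17%. The part of the assembly in these counts was not tested.

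DR_414 and BR_411 took no part in the study's calls, so they offer the 1 comparison of the states that did not enter the choice of the 108. DR_414 was above BR_411 in 30 of the 50 contigs higher in nest defense and below it in 19, and it was below BR_411 in 31 of the 58 lower contigs and above it in 24, with 4 contigs equal. The removed pair thus went the same way as the kept libraries in 61 of 108 contigs (56.5%), and in 35 of the 63 that passed the filter (55.6%). Over all tested contigs that share was 50.5%, and over the 1270 contigs with an unadjusted p under 0.05 it was 51.6%. With 1 library a state there is no test of this difference, DR_414 and BR_411 need not come from the same colonies, and the removed libraries are deeper than any kept one. Because pools of both states drew on the same colonies, each removed library may also share colonies with a kept library of the other state. The removed pair is therefore not independent of the kept libraries, and the part of shared colonies in these shares was not tested.

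The contigs at 0 in a kept state show where the removed libraries differ. Of the 29 contigs without a count in the kept before a raid libraries, 24 had counts in BR_411, and of the 46 without a count in the kept nest defense libraries, 38 had counts in DR_414. The same held for most contigs of the assembly picked by counts alone. Of 123 contigs with no count in the kept before a raid libraries and at least 30 in the kept nest defense libraries, 79.7% had counts in BR_411, and of the contigs with the opposite pattern 69.8% had counts in DR_414. In 14 of the 50 higher contigs BR_411 was above the mean of the kept defenders.

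**Figure D4:**
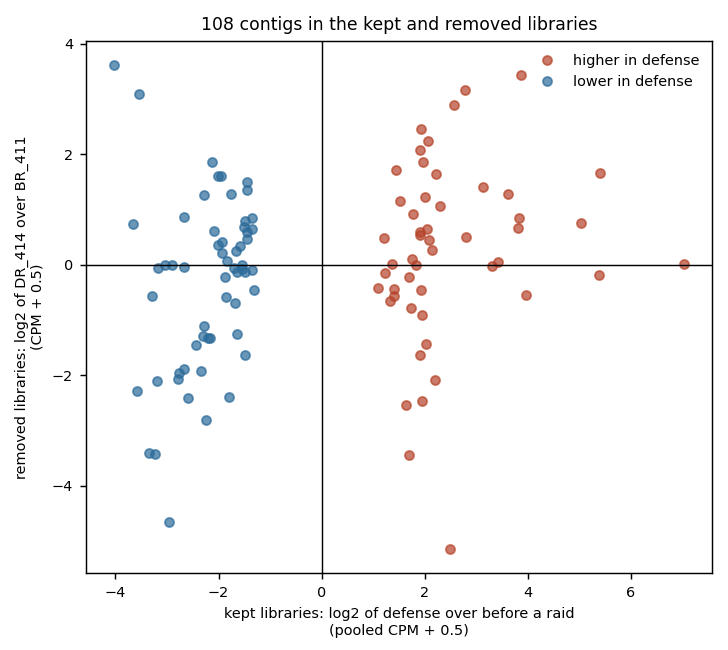
For each of the 108 contigs, the log2 ratio of nest defense over before a raid in the 6 kept libraries (horizontal axis, pooled CPM + 0.5) and the log2 ratio of DR_414 over BR_411 (vertical axis, CPM + 0.5). The horizontal split is fixed by how contigs were chosen, while on the vertical axis 61 of the 108 lie on the side of the kept libraries and 43 on the other.

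With all 8 libraries, fewer contigs had states that stood apart. States did not overlap in CPM over the 6 kept libraries in 76 of the 108 contigs (29 higher and 47 lower), and in 58 of the 63 that passed the filter (24 higher and 34 lower), against 4.1% of all tested contigs higher and 5.88% lower. With the removed pair included this was 24 contigs (8 higher and 16 lower), of which 21 passed the filter (8 higher and 13 lower), against 1.19% and 1.87% of all tested. Because the list was picked on 6 of these 8 libraries, its shares lie above those of all contigs by that choice and are a description. Over all tested contigs, 1747 higher and 2507 lower with 6 libraries became 508 and 799 with 8. Among the 26 of the 108 with more than 3 counts in both kept states and a value in both fits, the median size of the log2 fold change was 4.38 with 6 libraries and 2.2 with 8, smaller in 24 and of the same sign in all 26. The smaller size and the unchanged sign are also a description, since the 26 were picked on 6 of these 8 libraries. Of the 24 contigs whose states stood apart in all 8 libraries, 5 named a protein (suppressor of tumorigenicity protein 14 higher, and Lipase 3, the amino acid permease, succinate dehydrogenase and THO complex subunit 1 lower in nest defense), 4 were hypothetical proteins and 15 had no match.

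Some of the same protein names occur among the contigs that the study called in other species, which were likewise picked on their own libraries. Only T. ambiguus, T. longispinosus and T. duloticus were searched, so names shared with T. americanus or T. pilagens are not covered. The paper lists painless and MYG1 for T. americanus. In T. ambiguus, another host, arylphorin subunit alpha averaged 57.2 CPM in nest defense and 10.1 CPM before a raid (n = 4 each, adjusted p = 0.53 by edgeR's quasi-likelihood test), and suppressor of tumorigenicity protein 14 averaged 104 and 42.4 CPM in the same order. Trypsin-7 was matched by contigs of both other hosts with nearly all counts in nest defense, of which DR_695 held 89.3% to 91.8% in T. ambiguus and DR_431 72.7% to 99.8% in T. longispinosus. In T. duloticus, the slavemaker, the order of the states differed from that in T. curvispinosus for several of these names. Arylphorin subunit alpha averaged 4.56 CPM in raiding workers and 24.9 CPM outside the raiding season there, and the 2 contigs of Trypsin-7 averaged 0.640 and 0.437 CPM in raiding workers and 66.8 and 86.5 CPM outside the season (adjusted p = 0.0178 and 0.0231 by edgeR's quasi-likelihood test). Hexokinase-2 was lower in raiding T. duloticus (71.7 CPM, against 182 CPM outside the season, adjusted p = 0.00732), beside means of 72.2 CPM in nest defense and 176 CPM before a raid in T. curvispinosus. No test of the difference between species was made, and in T. duloticus the season went with the state, so these cannot be told apart there.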

How the data were processed

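RNA-seq libraries of pooled whole T. curvispinosus workers were assigned to states by their titles. Per the study's methods, the authors trimmed reads with Trimmomatic, mapped them with TopHat2 2.0.13 and Bowtie to their own assembly and counted reads per contig with eXpress. They deposited raw counts, as whole numbers without normalization. A second deposited table lists the 108 contigs the authors called with edgeR, with the same counts, the match e-value (a score) and match positions. Its fold changes, p-values and adjusted p-values were not used, nor were 64 further columns of library values in the 4 expression tables read.

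Contigs were tested with edgeR 4.0.16 (limma 3.58.1, R 4.3.3). They were kept by filterByExpr (minimum count 10), scaled by TMM, fitted with glmQLFit and tested with glmQLFTest, and p-values were adjusted by Benjamini-Hochberg over all tested contigs (0.05). The standard error is the size of the log2 fold change over the square root of F. CPM use TMM factors over all 8 libraries, and library totals in other species. Nothing in the labels says that pools are independent beyond their colonies. The fits set the difference of the states against the spread between pools of a state. They held no colony term, so pools of both states from the same colonies were treated as independent. The fits were tested on simulated data. Tables and ANOSIM were computed in Python 3.11.15 with pandas 2.3.3, NumPy 2.4.6 and SciPy 1.17.1, and drawn with matplotlib 3.10.9. Alternatives were DESeq2 1.42.0, the likelihood ratio test of edgeR (filter on or off), the quasi-likelihood test with the filter off or with RLE scaling, all 8 libraries, each kept library left out, Euclidean distance, other share limits, library totals and, added after the data were seen, DR_414 or BR_411 added alone.

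Named are contigs matching Trypsin-7, painless or MYG1, protein-named contigs whose states do not overlap (in the kept libraries, at 1 CPM or more, the 10 of largest change each way, or in all 8), contigs called by the quasi-likelihood test in any fit, up to 3 per keyword list and, per state, the 5 most concentrated in 1 library. This took in all 17 contigs naming a protein. Hypothetical proteins were picked after their values were seen. The contigs and lists were chosen with earlier results of these data known. Contig sequences and cell type markers were not analysed here.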

Additional observations from a re-analysis of the deposited data

Results flagged for a closer look

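Within the 4 libraries of a state, single libraries stood far from the other 3 by Dixon's ratio in total counts, in contigs counted and in 11 values of named contigs. For normally distributed values, chance alone would give about 1 in 20 such groups. That rate does not hold where the other 3 libraries are at 0, since the ratio is then 1 whatever the count. Some contigs were also named for being concentrated in 1 library. BR_411 stood apart in its total of 89.0-million counts and its 77259 contigs with counts. It also stood high among before a raid libraries for the fatty acyl-CoA reductase at 129 CPM, for both tick transposon contigs at 59.1 and 13.7 CPM and for painless at 17.2 CPM.

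Among nest defense libraries, DR_415 stood apart for the elongase at 13.8 CPM and for painless at 23.6 CPM. DR_413 stood apart by 1 count of Lipase 3 (0.0455 CPM) and 3 counts of the kainate 2-like glutamate receptor (0.137 CPM), where the other 3 libraries had none. DR_414 stood apart for MYG1 at 1.78 CPM, for THO complex subunit 1 at 1.15 CPM and for the putative tumor differentially expressed protein at 2.40 CPM. The causes were not tested.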

How the results depend on the processing

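The count of 0 contigs called by edgeR's quasi-likelihood test remained 0 with RLE size factors, no filter, all 8 libraries, either removed library added alone and each kept library left out, except without BR_412, where 1 contig was called (range 0 to 1). This contig (Sample_412 contig 193, with no match) had 210.9, 305 and 178.5 CPM in DR_413, DR_415 and DR_416, against 0.0487, 0.0652 and 519.6 CPM in BR_409, BR_410 and BR_412. Its log2 fold change was 0.42 in the main fit, 11.82 without BR_412, and -0.18 without BR_409 and also without BR_410. The likelihood ratio test called 67 contigs, 93 without the filter, and DESeq2 68. The 1270 contigs with an unadjusted p under 0.05 became 1999 without the filter and 904 to 2320 with single libraries left out. ANOSIM R, -0.11, was 0.037 with BR_411 added and -0.33 to 0.25 with single libraries left out (0.08 without DR_413 and 0.25 without DR_416), with exact p of 0.30 or more throughout. The 76 listed contigs whose states do not overlap became 24 over all 8 libraries, and the 17 with 80% of their CPM in 1 library became 81 at 50%. Of 153 alternative log2 fold changes of 11 tested contigs, 130 stayed on their side of the threshold, 21 passed it under another tool or without BR_412 and 2 changed sign. No paired analysis was made, because the labels give the states no shared replicate numbers and do not say which pools share colonies. The library pairs named in the study's methods were not used to match pools. Depth limits contigs at or near 0: 1 count is 0.164 CPM in DR_415.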
